A study of Mus musculus with 3 samples.

Results

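The histone genes described here are those whose name in the array design begins with Hist1h to Hist4h, H2af, H3f3, H1f or H1foo. Of the 41174 non-control probes on the array, 67 carried such a name, and they covered 47 gene names. They were divided by name into replication-dependent histones (44 probes of 34 genes) and variant and linker histones (23 probes of 13 genes). The sets follow the names only. Whether each gene is transcribed in S phase was not tested, and testis forms stand where their names place them. The replication-dependent set held 36 probes of core histone genes and 8 probes of Hist1h1 linker genes. The other set held 16 probes of variant core histone genes (H2af and H3f3) and 7 probes of replacement linker genes (H1f0, H1fx, H1fnt and H1foo). Signal was high enough for testing at 26 of the 67 probes, from 22 genes.

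Histones package DNA into nucleosomes, each built from the core histones H2A, H2B, H3 and H4, with linker histone H1 binding where DNA enters and leaves. Replication-dependent histone genes lie in clusters, are transcribed mainly in S phase, and give mRNAs that end in a conserved stem-loop in place of a poly(A) tail. Variant histones such as H3.3 and H2A.Z come from genes with polyadenylated mRNAs and are deposited outside S phase as well. In mouse, the oocyte carries its own linker histone, the product of H1foo, and H3.3 from the maternal store is loaded onto the sperm genome after fertilisation.

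The samples were mouse embryos at the four-cell stage, pooled before RNA extraction. They grew either from oocytes put under hydrostatic pressure (HP: 20 MPa, lasting 60 min, at 37 °C) or from control oocytes handled alike but never pressurised. Strain and age of the donors are not given in the sources used here. Fertilisation was by sperm injection per the sample labels, while the series title says in vitro. There were 3 arrays, each with 1 HP pool in Cy5 and 1 control pool in Cy3. HP pools held 44, 30 and 37 embryos and control pools 36, 33 and 24 embryos on replicates 1, 2 and 3. From each pool, 240 pg of total RNA went through a two-round amplification, and dye and treatment ran the same way on every array, so they cannot be told apart. Fewer cells and less RNA per cell cannot be told apart either.

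HP pools 2 and 3 stood closer to each other than any other pools of the same treatment: the SD of their log2 difference over all tested probes was 0.229, against 0.455 and 0.537 for the other HP pairs and 0.462 to 0.518 for control pairs. Over the 26 histone probes it was 0.163, against 0.319 and 0.410 for the other HP pairs and 0.200 to 0.352 for control pairs. The class medians and the histone probes with an unadjusted limma p under 0.05 are given below also with replicates 2 and 3 averaged. For other probes that value is not printed. Of 11 oocyte and early embryo marker genes on the array, 7 were well above background in at least 1 pool, and Nlrp5, Ooep, Zar1 and Zp2 were in none. The same held for 3 of 10 cumulus or granulosa genes, 2 of 8 sperm genes and 2 of 5 blood genes. Summed signal ranged from 8573 to 12638 in HP pools and from 7714 to 9338 in control pools for the oocyte and embryo list, and from 2072.5 to 2165 in HP pools and from 1965 to 2134 in control pools for the cumulus list. It ranged from 942 to 970.0 in HP pools and from 964 to 970.4 in control pools for the sperm list, and from 1025 to 1051 in HP pools and from 1024 to 1029 in control pools for the blood list. The oocyte and embryo sum was higher in HP on each array (8573 against 7714, 12638 against 9338 and 10559 against 8684). All 7 tested probes of that list were above 0 after loess, with a median log2 ratio of 0.25. With median centring 1 of 7 was above 0, and their median was -0.07, beside -0.37 for all tested probes. The part of these markers in the histone results was not tested.

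Many core histone genes encode nearly the same protein, and their 60-base probes overlap in sequence. The following 3 probes are shown because they gave the highest H2A ratios, and because a 29-base stretch in the later part of the coding sequence, in capitals, is common to all of them.
Hist1h2aa: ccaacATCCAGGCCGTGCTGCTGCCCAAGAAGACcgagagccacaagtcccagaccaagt
Hist1h2af: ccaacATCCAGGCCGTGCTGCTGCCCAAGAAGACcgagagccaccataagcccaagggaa
H2afj: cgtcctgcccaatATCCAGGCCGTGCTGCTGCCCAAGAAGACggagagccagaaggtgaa
In the mm7 coordinates of the array design they lie on the plus strand at chr13:23300592-23300651, chr13:22900228-22900287 and chr6:136833216-136833275. RNA of one of these genes could therefore bind the probes of the others, and the gene behind each signal is uncertain. A probe named MGC73635 on chromosome 13 also shares at least 20 bases with Hist1h2aa and Hist1h2af.

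A second H2A set covers the start of the coding sequence, with 26 shared bases in capitals. It is shown because the gene behind each signal is uncertain here too.
Hist1h2ak: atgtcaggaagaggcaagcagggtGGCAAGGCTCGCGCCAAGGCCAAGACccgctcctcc
Hist1h2ai: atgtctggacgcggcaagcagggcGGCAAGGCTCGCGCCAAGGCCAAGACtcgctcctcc
Hist1h2af, its other probe: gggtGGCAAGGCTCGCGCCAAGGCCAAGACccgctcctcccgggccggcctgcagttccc
These lie at chr13:21119757-21119816 and chr13:21153148-21153207 on the minus strand and at chr13:22899920-22899979 on the plus strand (mm7). Among H4 genes, a 29-base stretch, again in capitals, joins the following probes.
Hist1h4d: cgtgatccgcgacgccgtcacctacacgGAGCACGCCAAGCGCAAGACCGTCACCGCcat
Hist1h4f: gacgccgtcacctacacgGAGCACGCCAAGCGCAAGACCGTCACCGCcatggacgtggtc
Hist2h4: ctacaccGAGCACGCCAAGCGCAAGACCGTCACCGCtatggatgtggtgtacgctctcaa
They lie at chr13:22947598-22947657 (plus strand), chr13:22917373-22917432 (minus strand) and chr3:96136980-96137039 (minus strand). In all, 9 of the 14 tested replication-dependent probes, but 1 of the 12 tested variant and linker probes, shared at least 20 bases with a probe of another name.

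The stem-loop that ends replication-dependent histone mRNAs was present whole in 1 of the 67 probes, that of Hist1h3a, which encodes H3 and was not well above background in any pool. Its 16 bases, all in capitals, are a stem whose ends pair with each other around a short loop.
Hist1h3a: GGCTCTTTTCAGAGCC
Searched on both strands, these 16 bases occurred in 1 of all 41174 probes, and their first 10 bases occurred in 2 of 67 histone probes (Hist1h2ab and Hist1h3a) and in 0.0291% of all probes.

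Detection was counted for both sets. A probe was tested when the scanner software called it well above background on 2 or more of the 3 arrays, each time in 1 and the same channel. This held for 14 of 44 replication-dependent probes (31.8%) and 12 of 23 variant and linker probes (52.2%), beside 20.9% of all probes. All 6 pools were well above background at 10 replication-dependent probes (22.7%), 11 variant and linker probes (47.8%) and 12.1% of all probes. No pool was above background at 21 replication-dependent probes (47.7%), 11 variant and linker probes (47.8%) and 68.1% of all probes.

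**Figure D1:**
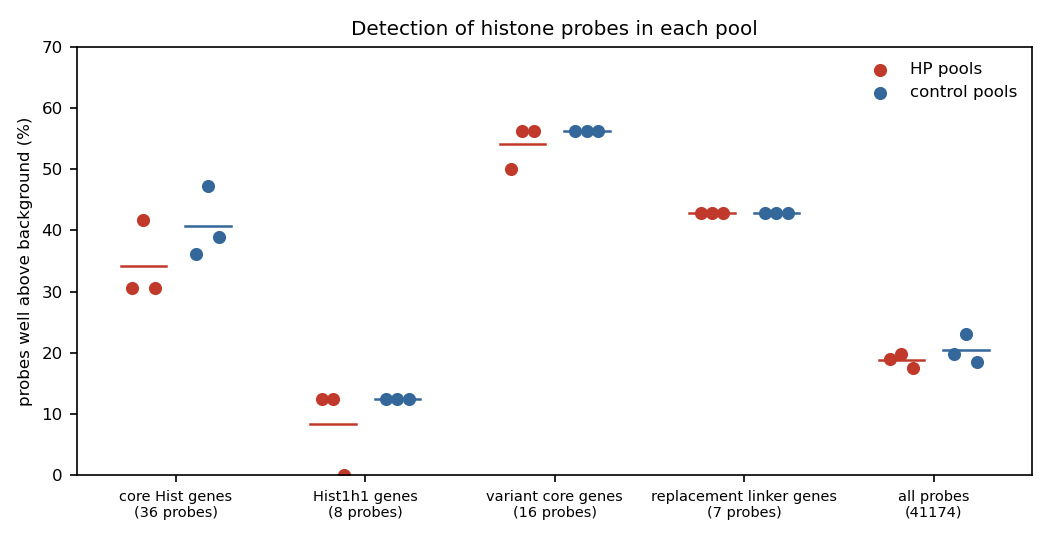
Share of probes called well above background (y axis, percent) in each of the 3 HP and 3 control pools, for the 4 histone classes and for all probes; points are pools and lines are the mean of the 3. Hist1h1 probes lay at 12.5% or 0% in every pool and variant core probes between 50% and 56.2%.

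Pool by pool, 12, 16 and 11 replication-dependent probes were above background in HP pools 1, 2 and 3, and 14, 18 and 15 in the control pools of the same arrays, so the control pool had more on each array. For all probes the shares were 19.0%, 19.8% and 17.5% in HP pools and 19.9%, 23.1% and 18.5% in control pools, which is the same order on each array. Variant and linker counts were 11, 12 and 12 in HP pools and 12 in every control pool.

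By family, replication-dependent H2A had 7 of 15 probes tested, H3 2 of 3, H4 4 of 8, linker H1 1 of 8 and H2B none of 10. The tested probes had more G and C (median 65.0%, range 45.0% to 75.0%) than the 30 that were not tested (median 45.0%, range 23.3% to 60.0%). All 8 replication-dependent probes over 60% G and C were tested, beside 58.9% of the 180 probes of the array in that range. None of the 13 at or below 40% was, beside 19.2% of all such probes. Variant and linker probes that were tested had a median of 45.0%. The part of base composition in detection was not tested.

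Signal was spread over a wide range in both sets. On the normalized log2 scale, tested replication-dependent probes ran from 6.35 to 11.61 in HP pool 1, 6.39 to 12.15 in HP pool 2 and 6.50 to 11.95 in HP pool 3, against 6.41 to 11.12, 6.33 to 10.97 and 6.48 to 11.34 in control pools 1 to 3. Variant and linker probes ran from 6.41 to 14.23, 6.51 to 14.54 and 6.42 to 14.48 in the HP pools, against 6.54 to 13.87, 6.21 to 13.72 and 6.44 to 13.61 in the control pools. A mean above 8 was seen at 6 of 14 and 7 of 12 probes of the sets. Probes differ in how well they bind, so no order of genes is read from these levels.

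**Figure D2:**
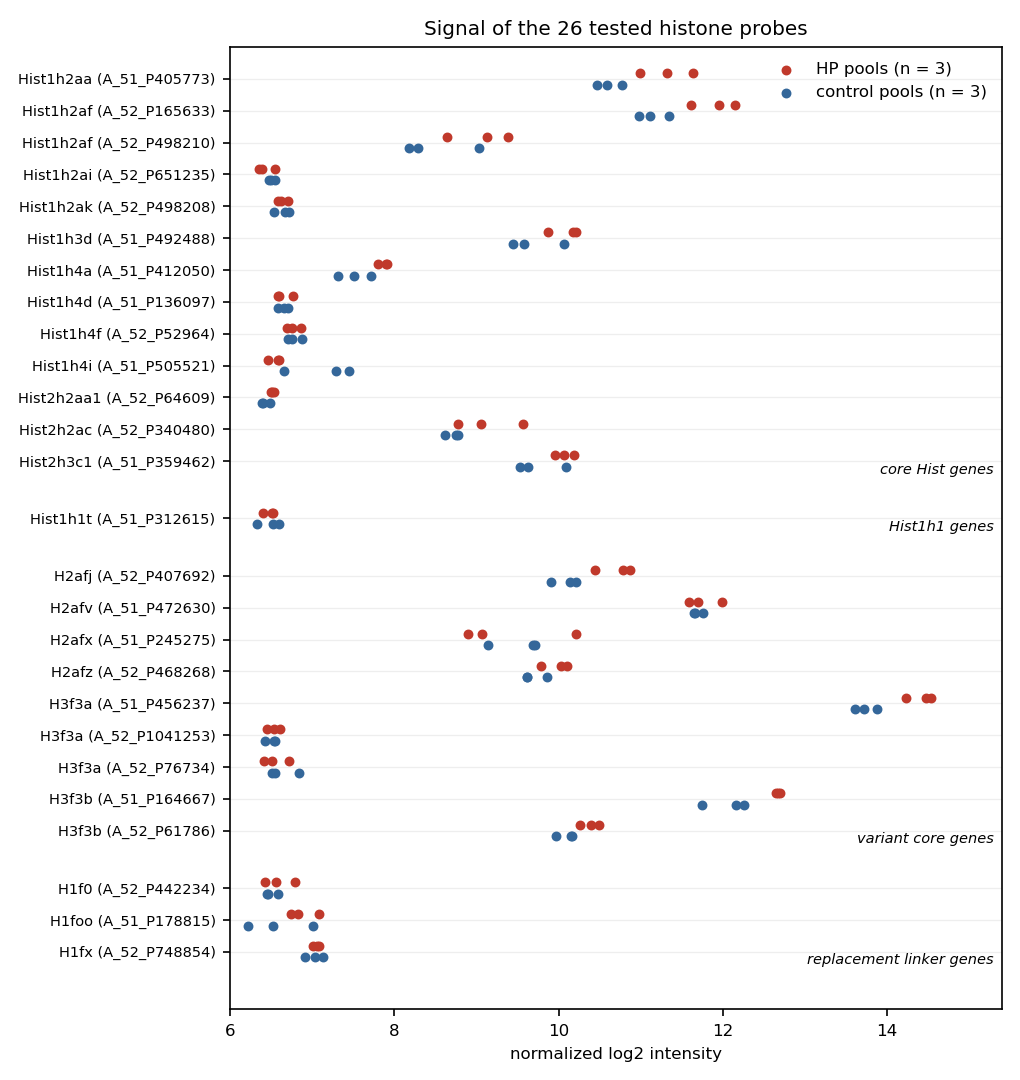
Normalized log2 intensity (x axis) of the 26 tested histone probes (y axis, by class), with 3 HP pools and 3 control pools as points. HP points lie above every control point at the first-listed probes of H3f3a, H3f3b and Hist1h2af and at the probes of Hist1h2aa and H2afj. By smaller gaps they also do so at the second H3f3b probe, Hist1h4a, Hist2h2aa1 and Hist2h2ac. At Hist1h4i they lie below every control point.

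No histone probe passed the limma test of HP against control after Benjamini-Hochberg adjustment over all 8590 tested probes, and neither did any other probe (0 of 8590, 0%); 1528 had an unadjusted p under 0.05. The lowest adjusted p was 0.193 among histone probes and 0.177 on the array. Without adjustment, 5 histone probes were below 0.05 with higher signal in HP (7.01% of all tested probes) and none with lower signal (10.8% of all tested probes). The 5 probes were those of H3f3a, Hist1h2af, H3f3b, Hist1h2aa and H2afj, and 3 of them share the 29-base stretch printed above. On all 3 arrays, 11 of 26 histone probes were higher in HP, beside 22.7% of tested probes, and 1 was lower, beside 24.9%. The p-values measure the spread between 3 pairs of pools and do not separate treatment from dye. Below, HP and control values of a probe are said to overlap or not. The share of all tested probes without overlap is not given here, so that remark only describes the probe.

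The directions depend on how the dyes were set level. Loess centres the log2 ratio at each intensity, and the median over all tested probes was -0.02. In place of loess, each array was also centred on the median of all its non-control spots. Of the non-control probes, 68.1% were above background in no pool. With this median centring the median of all tested probes was -0.37. Above 0 there was 1 of 26 histone probes, against 19 of 26 with loess. Unadjusted p-values under 0.05 then fell on 9 histone probes, all lower in HP. Relative to the median of all tested probes, 22 histone probes were higher with loess and 15 with median centring. Directions below are those after loess, and the value with median centring stands beside some probes only. The 1 histone probe above 0 with median centring was that of H1foo (0.06). Every other positive mean ratio of a histone probe below was therefore negative under that setting, also where the value is not printed beside it. Examples are Hist2h2ac (-0.39), Hist1h3d (-0.51), Hist2h3c1 (-0.59), H2afz (-0.63) and the second H3f3b probe (-0.66).

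**Figure D3:**
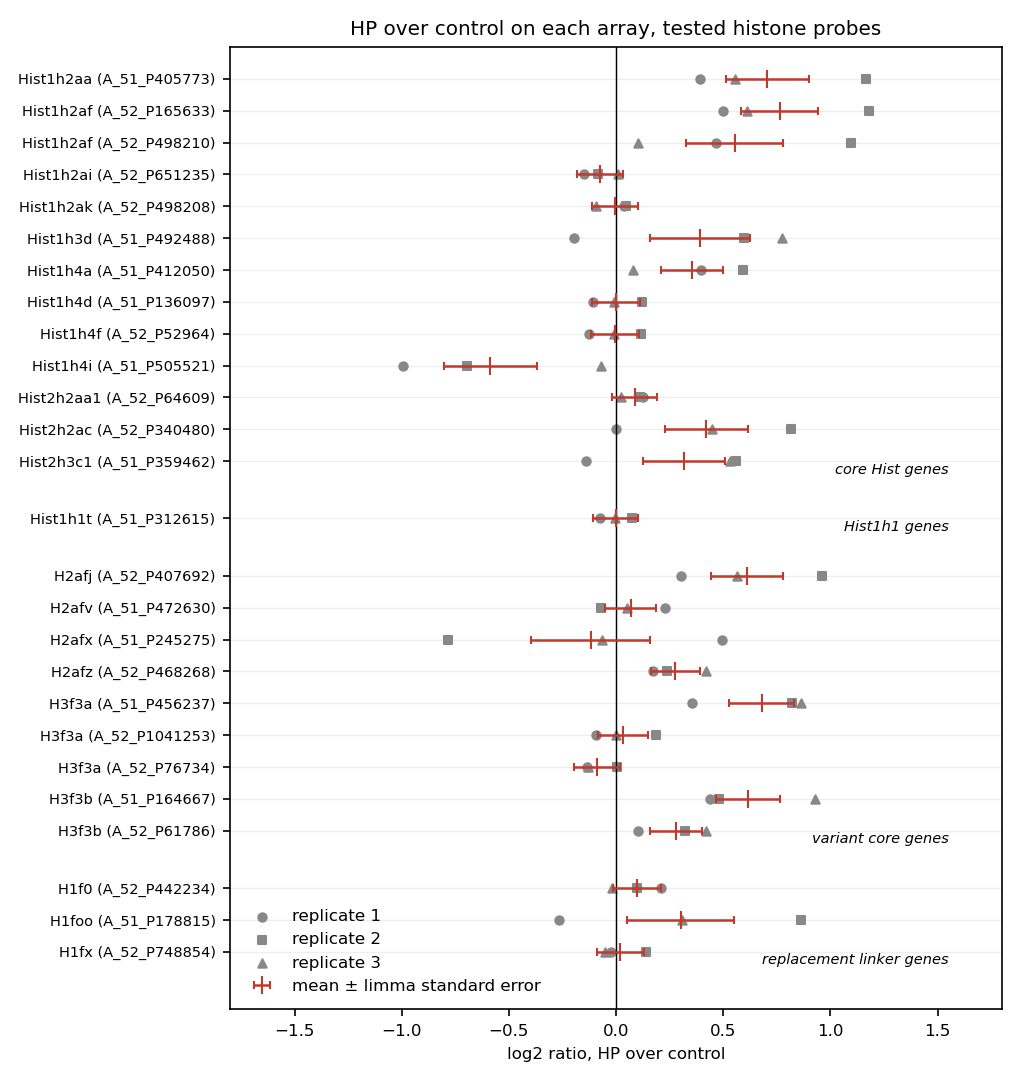
Log2 ratio of HP over control (x axis) for the 26 tested histone probes (y axis, by class); grey symbols are the 3 arrays, and the red mark and bar are the mean and its moderated standard error from limma. Means run from -0.59 for Hist1h4i to 0.76 for Hist1h2af.

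Among core H2A genes, Hist1h2aa encodes the H2A form first known from testis (TH2A), and its probe read 10.99, 11.63 and 11.32 in HP pools and 10.59, 10.47 and 10.77 in control pools on the log2 scale. Every HP value was above every control value, and the mean log2 ratio was 0.70 ± 0.19 (SE, n = 3; 1.63-fold; limma adjusted p = 0.223), or -0.31 with median centring. The Hist1h2af probe of the same set read 11.61, 12.15 and 11.95 in HP pools and 11.12, 10.97 and 11.34 in control pools. These did not overlap either, and the ratio was 0.76 ± 0.18 (1.70-fold; adjusted p = 0.196), or -0.30 with median centring. Replicate 2 gave the highest ratio at both probes, 1.16 and 1.18, against 0.39 and 0.50 on replicate 1 and 0.56 and 0.61 on replicate 3. The MGC73635 probe, chosen for its shared bases, had ratios of 0.60, 1.25 and 0.74 on the 3 arrays.

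The probe at the start of Hist1h2af read 8.64, 9.39 and 9.13 in HP pools and 8.17, 8.29 and 9.03 in control pools, which overlapped, for a ratio of 0.55 ± 0.23 (adjusted p = 0.309). The other probes of that set were dim. Hist1h2ak had a ratio of -0.00 ± 0.11. Hist1h2ai was well above background in 3 control pools and in no HP pool. Its HP and control values overlapped, and the measured ratio was -0.07 ± 0.11 (adjusted p = 0.715). With median centring the 3 probes stood at -0.24 (Hist1h2af), -0.19 (Hist1h2ak) and -0.17 (Hist1h2ai). Hist2h2ac, an H2A gene of the chromosome 3 cluster, had 8.78, 9.56 and 9.06 in HP pools and 8.78, 8.74 and 8.61 in control pools, with log2 ratios of 0.00, 0.82 and 0.45, and Hist2h2aa1 beside it had a mean of 0.09 ± 0.10.

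Of the H3 genes, Hist1h3d read 9.87, 10.18 and 10.21 in HP pools and 10.07, 9.58 and 9.44 in control pools, for a ratio of 0.39 ± 0.23 (adjusted p = 0.406). Hist2h3c1 read 9.95, 10.18 and 10.06 in HP pools and 10.09, 9.63 and 9.53 in control pools, for a ratio of 0.32 ± 0.19 (adjusted p = 0.411). In both, replicate 1 was below 0 and replicates 2 and 3 above it.

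Of the H4 genes, Hist1h4a read 7.91, 7.90 and 7.80 in HP pools and 7.51, 7.31 and 7.72 in control pools, without overlap, for a ratio of 0.35 ± 0.15 (adjusted p = 0.309), or -0.26 with median centring. Hist1h4d and Hist1h4f, which share the 29 bases printed above, stood at 0.00 ± 0.11 and -0.01 ± 0.11, or -0.21 and -0.29 with median centring. Hist1h4i read 6.46, 6.60 and 6.58 in HP pools and 7.45, 7.29 and 6.65 in control pools, again without overlap, for -0.59 ± 0.22 (adjusted p = 0.282), or -0.90 with median centring. It was well above background in 1 HP pool and 3 control pools, so the HP side is close to background and the size of the ratio depends on the offset. The scanner software's own ratio, with no offset added, averaged -1.74.

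H2B genes were not tested. Hist1h2ba, which encodes the testis form TH2B, was above background in 1 HP pool and in no control pool. Hist1h2be, chosen after its values were seen, read 6.25, 6.22 and 14.89 in HP pools and 6.23, 6.27 and 14.57 in control pools. Both pools of replicate 3 were among the brightest histone readings of the data, while the other 4 were at background. Of the Hist1h1 linker genes, placed in the replication-dependent set by name, Hist1h1t, the testis H1, was the tested one. It was above background in 1 HP pool and 2 control pools with a ratio of -0.00 ± 0.11. The somatic genes Hist1h1a, Hist1h1b, Hist1h1c and Hist1h1d were above background in no pool, and Hist1h1e was in 1 HP and 1 control pool.

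H3f3a and H3f3b encode H3.3. H3f3a, by its probe at chr1:180782295-180782354, read 14.23, 14.54 and 14.48 in HP pools and 13.87, 13.72 and 13.61 in control pools. There was no overlap, and the ratio was 0.68 ± 0.15 (1.60-fold; adjusted p = 0.193), or -0.60 with median centring, which is below the median of all tested probes under that setting. Its other 2 probes, which overlap each other, were dim and stood at 0.03 ± 0.12 and -0.09 ± 0.11. H3f3b read 12.70, 12.64 and 12.67 in HP pools and 12.26, 12.16 and 11.74 in control pools. These were apart as well, with a ratio of 0.62 ± 0.15 (1.53-fold; adjusted p = 0.199), or -0.51 with median centring, and its second probe gave 0.28 ± 0.12 (adjusted p = 0.319).

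H2afj, an H2A gene on chromosome 6, read 10.45, 10.87 and 10.78 in HP pools and 10.14, 9.91 and 10.22 in control pools, without overlap. Its ratio was 0.61 ± 0.17 (1.53-fold, limma adjusted p = 0.224), or -0.34 with median centring. This is the probe that shares 29 bases with Hist1h2aa and Hist1h2af, and the other H2afj probe was above background in no pool. The H2A.Z genes are H2afz and H2afv. H2afz read 9.79, 10.10 and 10.03 in HP pools and 9.62, 9.86 and 9.61 in control pools, which overlapped, for 0.28 ± 0.11 (adjusted p = 0.310), and H2afv stood at 0.07 ± 0.12. A second H2afz probe, which the design places on chromosome 6 and not with the gene on chromosome 3, was at background in every pool.

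H2afx encodes H2A.X, which is phosphorylated beside DNA breaks. It read 10.21, 8.90 and 9.07 in HP pools and 9.72, 9.68 and 9.14 in control pools. The arrays disagreed in sign (0.50, -0.78 and -0.07), and the mean was -0.12 ± 0.28. The macroH2A genes H2afy, H2afy2 and H2afy3 were above background in no pool.

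Of the replacement linker genes, H1foo, the oocyte linker histone, read 6.75, 7.08 and 6.82 in HP pools and 7.01, 6.21 and 6.52 in control pools. The groups overlapped and the ratio was 0.30 ± 0.25 (adjusted p = 0.524), with 1.30 as the mean of the scanner software's ratio, which ran from -0.72 on replicate 1 to 2.86 on replicate 2. H1f0, known from differentiated cells, stood at 0.10 ± 0.11 and H1fx at 0.02 ± 0.11. H1fnt, the spermatid linker, was above background in no pool. At such dim probes the offset of 50 holds ratios close to 0.

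The ratios of the 2 sets were set side by side. The median log2 ratio was 0.20 for the 14 replication-dependent probes (9 above 0) and 0.19 for the 12 variant and linker probes (10 above 0), beside -0.02 for all tested probes (4107 of 8590 above 0). By array, the replication-dependent medians were -0.04, 0.34 and 0.05 and the variant and linker medians 0.19, 0.21 and 0.18. The difference of the class medians was 0.01. With median centring both were below 0, at -0.27 and -0.46, beside -0.37 for all tested probes. The replication-dependent median was thus above that of all tested probes and the variant and linker median below it, with a difference of 0.18. With replicates 2 and 3 averaged they were 0.15 and 0.14. Of the 5 probes with an unadjusted p under 0.05, Hist1h2af and H3f3b were still under it with that averaging, and Hist1h2aa, H3f3a and H2afj were not. The ratios with that averaging were 0.70 for Hist1h2af, 0.57 for H3f3b, 0.63 for Hist1h2aa, 0.60 for H3f3a and 0.53 for H2afj. The same 2 were under it without replicate 2, and without replicate 3 it was Hist1h2af alone of the 5. With the scanner software's own log ratio none of the 5 was under it, and the means were 0.68 for Hist1h2aa, 0.70 for Hist1h2af, 0.64 for H2afj, 0.33 for H3f3a and 0.45 for H3f3b. By G and C content, the median log2 ratio of all tested probes stood at -0.04 up to 40%, -0.03 up to 50%, 0.03 up to 60% and 0.06 above it, and with that trend removed the class medians were 0.12 and 0.22.

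**Figure D4:**
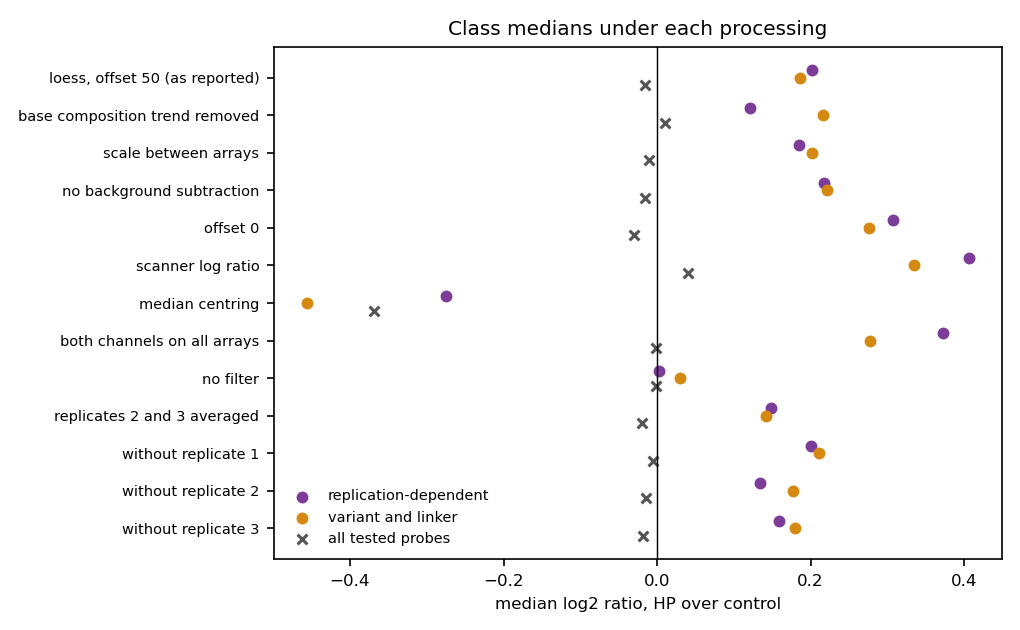
Median log2 ratio of HP over control (x axis) for the replication-dependent probes, the variant and linker probes and all tested probes, under each processing (y axis). Both histone medians lie above 0 except with median centring, where they are -0.27 and -0.46, beside -0.37 for all tested probes.

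Genes that process histone mRNA, or that carry and exchange histones, were listed by name. The lists held 12 processing genes, 24 chaperone genes and 10 CENP-A and exchange genes, all on the array. Of these, 35 genes had a tested probe, giving 43 tested probes. Their median ratio was -0.17, with 12 probes above 0 and 31 below, beside -0.02 for all tested probes. With median centring the median was -0.54, beside -0.37 for all tested probes, and 3 probes were above 0. None passed adjustment (0 of 43). Without it, 2 were higher in HP (7.01% of all tested probes) and 7 lower (10.8% of all tested probes). In the processing list, Casp8ap2 (FLASH), needed to cut histone pre-mRNA, read 9.16, 9.54 and 9.58 in HP pools and 9.81, 10.05 and 10.08 in control pools, without overlap, for -0.55 ± 0.11 (adjusted p = 0.179). Lsm10, of the U7 particle, stood at -1.17 ± 0.30 (adjusted p = 0.209). Of 2 Cpsf2 probes, 1 was above background in 3 control pools and no HP pool, and the other was above it in all 6 pools, with ratios of 0.20, 0.02 and -0.86. Slbp, which binds the stem-loop, had ratios of -0.88, 0.27 and 0.63 and a mean of 0.01 ± 0.33, or -0.86 with median centring.

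Of the chaperones, Hira, which deposits H3.3, read 13.28, 13.73 and 13.19 in HP pools and 12.53, 12.32 and 12.86 in control pools. These did not overlap, for 0.82 ± 0.24 (adjusted p = 0.237), or -0.36 with median centring. Nap1l4, of the H2A and H2B chaperones, stood at 0.57 ± 0.17 (adjusted p = 0.235), or -0.46 with median centring. Nasp, the H1 and H3 chaperone, stood at -0.48 ± 0.16 (adjusted p = 0.267), Set at -0.50 ± 0.15 (adjusted p = 0.235) and Rbbp7 at -0.33 ± 0.11 (adjusted p = 0.251). A second Nasp probe, above background in no HP pool, stood at -0.26 ± 0.17. A second Set probe stood at -0.19 ± 0.20, with ratios of 0.24, -0.59 and -0.24 on the 3 arrays. Asf1a had 0.26 ± 0.21 and Cenpa, the centromeric H3, 0.03 ± 0.17, or -0.63 and -0.83 with median centring. Ruvbl1, of the H2A.Z exchange complex, had -0.39 ± 0.12 (adjusted p = 0.252). Npm2, the oocyte nucleoplasmin, was not tested.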

How the data were processed

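Each of 3 two-colour Agilent arrays paired 1 HP pool (Cy5) with 1 control pool (Cy3). Per the file headers, scans were quantified with Feature Extraction 9.5.1.1, and the deposited mean and background signals are intensity values. The deposited log ratio is log10 of Cy5 over Cy3 after the software's own background and dye correction, converted here to log2 as an alternative. Here intensities were corrected with normexp (offset 50) and normalized by loess, with Aquantile for levels, in limma 3.58.1 (R 4.3.3). Median centring, an alternative to loess, used the median of all non-control spots, detected or not. Control spots and outlier spots (208, 172 and 325) were left out, and no spot was saturated. Probes had to be well above background in the same channel on at least 2 arrays (8590 of 41174 probes). The log2 ratio was tested against 0 with empirical Bayes moderation and Benjamini-Hochberg adjustment over these probes, at 0.05. The pair shares an array, so the ratio is the paired test. All 6 pools were used, and no column was unmapped (0). Gene names printed here are those of the array design. They were matched to current RefSeq names, by accession for 54 of 67 probes, and the current names are not printed. Named probes were up to 6 of smallest p per class, plus a list of variant and linker genes; every tested histone gene could be named. Of the pathway lists, up to 6 of smallest p and fixed genes were named. Members and lists were chosen with earlier results of these data known. The steps were tested on simulated data. Only 3 arrays limit the precision.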

Additional observations from a re-analysis of the deposited data

How the results depend on the processing

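The median log2 ratio of replication-dependent probes (0.20) was -0.27 with median centring, 0.0024 without a filter on dim probes, 0.0030 with the scanner software's positive and significant call as the filter, and 0.41 with its log ratio, which is also what the series table holds (0.41). It was 0.086 with unique probes, 0.086 with the mean over probes of a gene, 0.37 with both channels above background on all arrays, 0.31 with an offset of 0 and 0.32 with Hist1h1 as linker. It ran from 0.13 to 0.20 when each replicate was left out. With median centring, all tested probes had a median of -0.37. The variant and linker median (0.19) was -0.46 with median centring, 0.029 without a filter, 0.040 with the positive and significant call, 0.33 with the scanner or series log ratio, 0.22 with the base composition trend removed (an alternative added after the data were seen), 0.28 with both channels above background on all arrays, 0.22 without background subtraction, 0.28 with an offset of 0, 0.14 with replicates 2 and 3 averaged, 0.21 with the mean over probes of a gene, 0.10 with Hist1h1 counted as linker, and 0.10 with unique probes. It ran from 0.18 to 0.21 when each replicate was left out. The difference of the class medians (0.01) was 0.22 with Hist1h1 as linker, -0.12 with the mean over probes of a gene and -0.10 with the base composition trend removed. The count of histone probes with an unadjusted p under 0.05 (5) was 9 with median centring, where all 9 were lower in HP, 9 without a filter, 3 with replicates 2 and 3 averaged, 0 with the scanner or series log ratio, 2 with unique probes, and 2 to 9 when each replicate was left out. Without the replicate block, as separate channels, it was 7. Probes past adjusted p of 0.05 on the whole array numbered 0, except 1140 with median centring (5 higher and 1135 lower in HP, none of them a histone probe). Histone probes tested numbered 26, against 67 without a filter and 46 with the positive and significant call. Over 19 named probes and 301 values, the sign changed 30 times, and it never changed for 3 probes. Settings that change only the filter or the test keep the ratio of a probe as it was, so its sign could not change there. The scanner and series log ratios are the same values counted under both settings. The count of sign changes is therefore no measure of how stable the signs are. The cause of these shifts was not tested, beyond the numbers of probes that each filter adds. Signal over background limits the dim probes.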
